A study of Mus musculus with 6 samples.

Results

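The zinc exporters of the Slc30 family comprise 10 genes here, Slc30a1 to Slc30a10, among the 18194 genes that the array table named with a single symbol. They were chosen by name, with earlier results of these data known. Every probe set with one of these symbols alone was taken, which gave 13 of 45101 probe sets. Slc30a1, Slc30a7 and Slc30a10 had 2 probe sets each and the other genes 1. The values came from 6 Affymetrix mouse expression arrays, 4 of MIN6 cells and 2 of pancreatic islets. MIN6 cells are a line of insulin-secreting mouse beta cells. All MIN6 samples had been infected with an adenovirus for 48 h, at a multiplicity of infection of 250, in DMEM with 4.5 g/l glucose, Glutamax, 2% fetal bovine serum and 2-mercaptoethanol. The virus carried green fluorescent protein as control (AdGFP, 1 array), miR-7a (AdmiR7a, 2 arrays) or miR-7b (AdmiR7b, 1 array). The islets were from C57BL/6 mice with the miR-7a2 gene deleted in beta cells by Cre recombinase (KO, 1 array) and from mice of wild-type genotype (WT, 1 array). The promoter that drove Cre and the age and number of the animals are not given in the sources used here, and only the beta cells of the KO islets had the deletion. The labels do not say whether the AdmiR7a samples were separate cultures, so the spread between them may be technical. Mature miR-7 was not measured.

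Transporters of the Slc30 family, also called ZnT, move zinc out of the cytosol, either across the plasma membrane or into vesicles and organelles, whereas those of the Slc39 family, also called ZIP, bring zinc into it. Beta cells hold large amounts of zinc in their insulin granules, where insulin is stored as crystals with zinc, and the granule transporter ZnT8, encoded by Slc30a8, supplies much of it. Cytosolic zinc is sensed by the transcription factor MTF1, which binds metal response elements and induces the metallothionein genes Mt1 and Mt2 and the exporter gene Slc30a1, and which holds down the importer gene Slc39a10. MicroRNAs of the miR-7 family are abundant in endocrine cells and lower the messages whose 3′ untranslated regions pair with their seed.

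The agent that distinguished the MIN6 arrays is shown by its sequence, because the miR-7a and miR-7b vectors are treated below both together and apart. RefSeq (GRCm38.p6) gave the mature sequences, written 5′ to 3′ with the seed, bases 2 to 8, in capitals.
mmu-miR-7a-5p: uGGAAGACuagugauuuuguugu
mmu-miR-7b-5p: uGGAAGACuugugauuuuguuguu
The seeds were identical. Counted from the 5′ end, miR-7b differed from miR-7a by 1 substitution, A10U, and by 1 extra base at the 3′ end. The miR-7a sequence lies at chr13:58392841-58392863 on the minus strand in Mir7-1 and at chr7:78888295-78888317 on the plus strand in Mir7-2, the miR-7a2 gene deleted in the KO islets. The miR-7b sequence lies at chr17:56243017-56243040 on the plus strand in Mir7b.

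The deposited values are log2 intensities made with GCRMA. They can be compared between arrays for one probe set but not between probe sets, so no gene is called more abundant than another. On all 6 arrays 3 of the 13 probe sets, that of Slc30a2 and both of Slc30a10, sat at 2.17, the lowest value in the table. Slc30a2 loads zinc into secretory vesicles and lysosomes, and Slc30a10 is known for exporting manganese. Neither gene was tested. The other 8 genes passed the filter, a mean of 4 or more, in MIN6 and in islets. Among genes with single symbols, 10369 passed it in MIN6 and 10568 in islets.

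**Figure D1:**
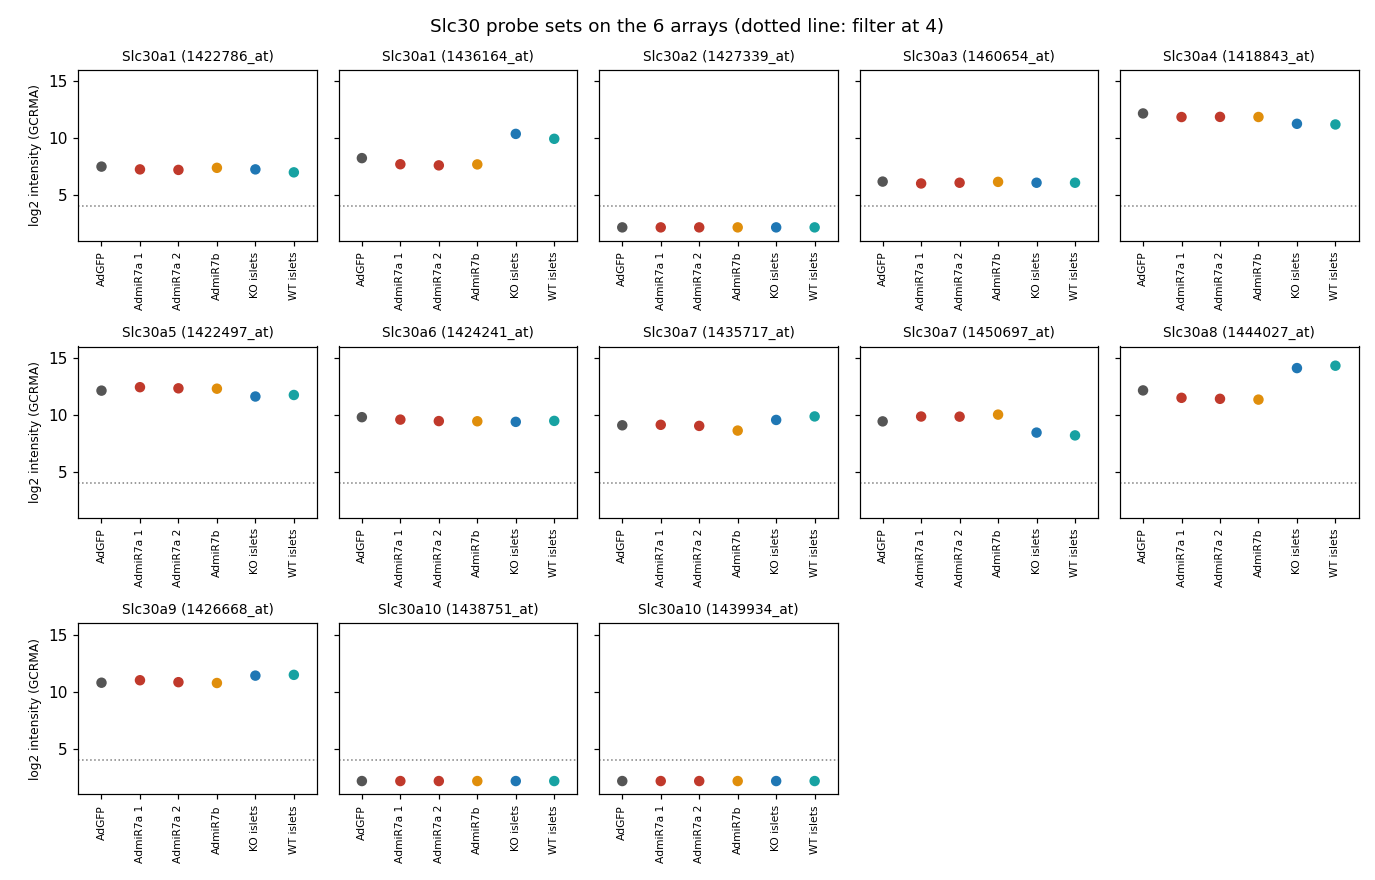
Log2 intensity (vertical axis) of each of the 13 Slc30 probe sets on the 6 arrays (horizontal axis), 1 point an array: AdGFP grey, AdmiR7a red, AdmiR7b orange, KO islets blue, WT islets teal; the dotted line is the filter at 4. Slc30a8 and 1 Slc30a1 probe set are higher on both islet arrays than on any MIN6 array, and the probe sets of Slc30a2 and Slc30a10 stay at 2.17 throughout.

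With miR-7a or miR-7b, the granule transporter gene Slc30a8, the plasma membrane exporter gene Slc30a1 and Slc30a4 fell, and Slc30a7 rose by 1 of its 2 probe sets. The other 4 genes tested did not pass. The test was limma over all genes, with the 3 miR-7 arrays as one group against the single AdGFP array and a threshold of 0.05 on the Benjamini-Hochberg adjusted p. In this fit 11.9% of 10369 genes fell and 14.3% rose. In the family, 3 of 8 genes fell and 1 of 8 rose, and the median difference was -0.20 against 0.06 over all genes tested. AdGFP lay outside the range of the miR-7 arrays for 7 of the 8 genes, and for 79.4% of all genes tested, so a lack of overlap was common on these arrays.

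Slc30a8, which encodes the zinc transporter of the insulin granule membrane, stood at 12.15 on AdGFP. It stood at 11.50 and 11.41 on the AdmiR7a arrays and at 11.34 on AdmiR7b. AdGFP was above all 3 miR-7 arrays, whose mean was 11.42 ± 0.08 (SD, n = 3). The pooled difference was -0.73 ± 0.09 (log2, SE; limma adjusted p = 0.0182), a 1.66-fold fall, and 6.55% of the genes tested had a difference as low or lower.

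Slc30a1 is the main exporter of zinc across the plasma membrane. Its probe set 1436164_at read 8.24 on AdGFP, 7.70 and 7.61 on AdmiR7a and 7.69 on AdmiR7b, and the miR-7 arrays lay together below AdGFP. It fell by 0.57 ± 0.08 (log2, SE; limma adjusted p = 0.0206), which is 1.49-fold. The second probe set, 1422786_at, read 7.50 on AdGFP against 7.25, 7.21 and 7.39. Its miR-7 values were also all below AdGFP, at a difference of -0.21 ± 0.10 that did not pass when each probe set was tested on its own (limma adjusted p = 0.225).

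Slc30a3 and Slc30a4 belong to the vesicular transporters. The first is best known for loading synaptic vesicles with zinc, and the second for loading vesicles and endosomes. Slc30a4 stood at 12.16 on AdGFP and at 11.85, 11.86 and 11.85 on the 3 miR-7 arrays, the closest agreement among miR-7 arrays in the family above the minimum (SD 0.0075, n = 3). It fell by 0.31 ± 0.07 (log2, SE; limma adjusted p = 0.0450), 1.24-fold. With the threshold this near, the call was lost when each of 18010 probe sets was tested (limma adjusted p = 0.0554).
Slc30a3 read 6.18 on AdGFP, 6.02 and 6.08 on AdmiR7a and 6.16 on AdmiR7b, and its difference of -0.10 ± 0.09 did not pass (limma adjusted p = 0.462). Its value of 6.08 on the second AdmiR7a array recurred to 4 decimals on both islet arrays. Exact ties between the islet arrays occurred in 24 of the 2557 probe sets with an islet mean of 6 to under 7, so such ties were rare. Whether the values of this probe set follow the level of Slc30a3 was not tested.

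Slc30a5, Slc30a6 and Slc30a7 serve the early secretory pathway, where the products of the first pair form a heteromer and that of Slc30a7 acts beside them to supply zinc to enzymes made there. These genes did not move as a group. Slc30a5 read 12.13 on AdGFP and 12.43, 12.33 and 12.30 with miR-7, a difference of 0.22 ± 0.09 (limma adjusted p = 0.136). Slc30a6 read 9.80 on AdGFP and 9.59, 9.46 and 9.44 with miR-7, a difference of -0.31 ± 0.09 (limma adjusted p = 0.0855). In each case AdGFP lay outside the miR-7 arrays, above them for Slc30a6 and below them for Slc30a5, and neither passed the test.

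The probe sets of Slc30a7 disagreed. By 1450697_at, the brighter in MIN6 and therefore the one tested, Slc30a7 read 9.43 on AdGFP, 9.86 and 9.85 on AdmiR7a and 10.03 on AdmiR7b, and rose by 0.48 ± 0.11 (log2, SE; limma adjusted p = 0.0447). By 1435717_at it read 9.09 on AdGFP, 9.13 and 9.04 on AdmiR7a and 8.63 on AdmiR7b. Here AdGFP lay between the AdmiR7a arrays and only AdmiR7b was clearly lower, so the difference was -0.16 ± 0.24 (limma adjusted p = 0.662). With the mean of both probe sets the gene stood at 0.16 (limma adjusted p = 0.265). The rise of Slc30a7 thus held for 1 probe set only.

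Slc30a9, whose product is assigned to mitochondrial zinc export, read 10.79 on AdGFP and 11.01, 10.84 and 10.77 with miR-7. AdGFP lay within the miR-7 range, the only such case among the 8 genes, and the difference was 0.08 ± 0.12 (limma adjusted p = 0.657). Tested probe set by probe set, 2 of the 10 Slc30 probe sets above the filter were called, those of Slc30a8 (limma adjusted p = 0.0275) and Slc30a1 (limma adjusted p = 0.0300), against 18.7% of all 18010 probe sets tested.

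Every one of these calls needed all 3 miR-7 arrays. Without the first AdmiR7a array, the second AdmiR7a array or AdmiR7b, limma called 0 genes of the whole table, and the adjusted p of Slc30a8, Slc30a1, Slc30a4 and Slc30a7 lay between 0.0656 and 0.116 with their directions kept. With genes of any level tested, including those at the minimum on all arrays, Slc30a4 remained the single Slc30 call. Among the Slc30 genes called in the main fit it had the smallest difference (-0.31) and the least spread among miR-7 arrays (SD 0.0075). Its call there does not make it the firmest of them. All MIN6 differences rest on the same AdGFP array, on which the 18 hybridisation control probe sets averaged 11.62 against 11.74, 11.78 and 11.85 with miR-7, and the 3 probe sets for 18S ribosomal RNA averaged 13.99 against 13.63, 13.63 and 13.89. The part of these shifts in the Slc30 values was not tested.

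The AdmiR7a vector alone, fitted with 1 mean for each vector, which leaves 1 residual degree of freedom, gave 0 calls among 8 Slc30 genes and 0% among all 10369 genes. At an unadjusted limma p under 0.05 it gave 4 Slc30 genes and 3811 genes in all, and the lowest adjusted p in the family was 0.0683, for Slc30a8. Its differences ran from -0.69 for Slc30a8 to 0.42 for Slc30a7 by 1450697_at.

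AdmiR7b against AdGFP, 1 array each and so with no replicate check, gave values from -0.81 for Slc30a8 to 0.59 for Slc30a7 by 1450697_at, while the other Slc30a7 probe set, 1435717_at, gave -0.46. None of the 8 genes reached a log2 size of 1, which 8.12% of all genes did. Between the vectors, limma called 0 of 8 Slc30 genes and 0% of all genes for AdmiR7b minus AdmiR7a, and an unadjusted p under 0.05 was met by 0 Slc30 genes and 608 genes in all. By the probe sets used for each gene the differences were -0.16 to 0.17, the highest that of Slc30a7 by 1450697_at. The second Slc30a7 probe set, 1435717_at, went the other way, at -0.46 ± 0.08 (limma unadjusted p = 0.0225, adjusted p = 0.701 with each probe set tested). The Slc30a8 difference was -0.11, and that of Slc30a1 0.04. These values do not show that the vectors acted alike.

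**Figure D2:**
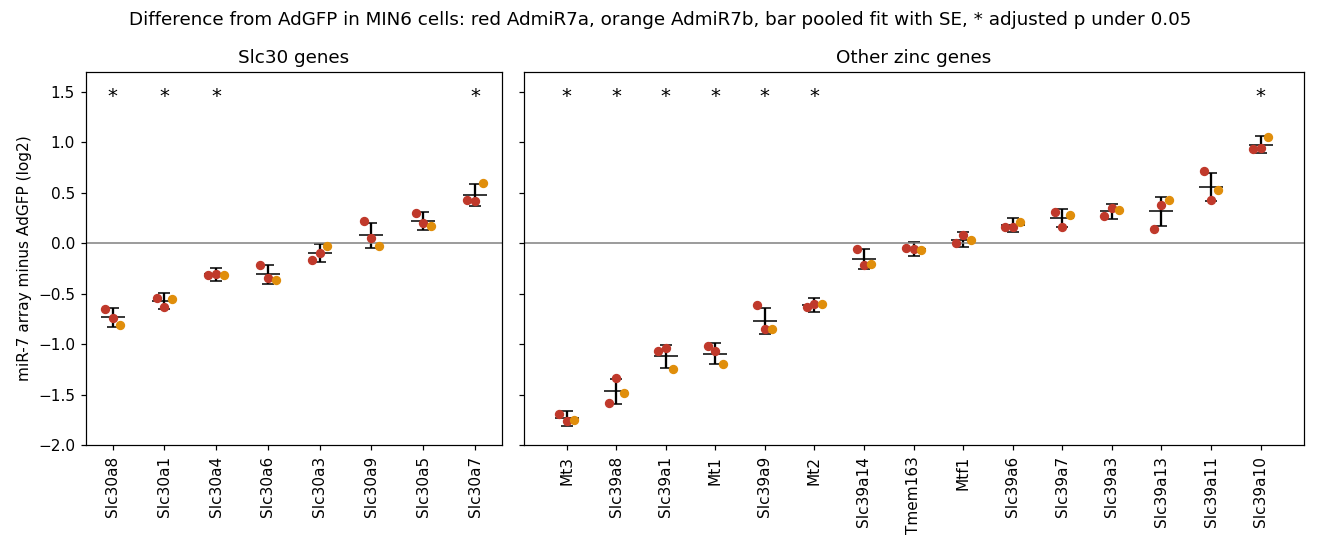
Difference of each miR-7 array from AdGFP (log2, vertical axis) for the 8 Slc30 genes and the 15 other zinc genes tested, ordered by size; red points are the 2 AdmiR7a arrays, orange points AdmiR7b, the wide bar with caps the pooled estimate with its SE, and a star marks a limma adjusted p under 0.05. All points share 1 AdGFP array. Slc30a8, Slc30a1 and Slc30a4 lie below 0 on all 3 arrays, as do the 3 metallothionein genes and the importers Slc39a1, Slc39a8 and Slc39a9. So do Slc30a3, Slc30a6, Slc39a14 and Tmem163, which have no star. AdGFP lay outside the miR-7 range for 79.4% of all genes tested.

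The other genes of zinc handling were taken from a list of 20, made of the 14 importers Slc39a1 to Slc39a14, the 4 metallothioneins, Mtf1 and the zinc transporter gene Tmem163. Of these, 15 passed the filter in MIN6, and in the pooled fit 6 fell and 1 rose, at a median of -0.06. Over all 10369 genes 11.9% fell and 14.3% rose, at a median of 0.06. All 3 metallothionein genes tested fell, 3 importers fell and 1 rose.

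Metallothioneins are small cysteine-rich proteins that bind zinc and copper. Mt1 stood at 14.83 on AdGFP and at 13.82, 13.76 and 13.63 with miR-7, and fell by 1.10 ± 0.10 (log2, SE; limma adjusted p = 0.0132). The name of its probe set, 1422557_s_at, marks it as one that can also read related transcripts. The second Mt1 probe set gave -1.72 ± 0.24 on its own. Mt2 read 13.97 on AdGFP and 13.34, 13.36 and 13.37 with miR-7, and fell by 0.61 ± 0.07 (limma adjusted p = 0.0161). Mt3, the brain-enriched member, went from 10.94 on AdGFP to 9.24, 9.18 and 9.19 and fell by 1.73 ± 0.07 (limma adjusted p = 0.0100). For all 3 genes AdGFP was above every miR-7 array. Mt4 sat at the minimum on all arrays.

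Among the importers, Slc39a8, which carries zinc and manganese into cells, fell by 1.47 ± 0.12 (limma adjusted p = 0.0125), from 11.25 on AdGFP to between 9.67 and 9.92. Slc39a1, a plasma membrane importer, fell by 1.12 ± 0.12 (limma adjusted p = 0.0142), from 8.98 to between 7.73 and 7.94. Slc39a9 fell by 0.77 ± 0.13 (limma adjusted p = 0.0269), from 9.73 to between 8.88 and 9.11. Slc39a10 rose by 0.98 ± 0.09 (limma adjusted p = 0.0130), from 9.84 to 10.78, 10.79 and 10.89, and its second probe set gave 1.55 ± 0.15. The miR-7 arrays did not overlap with AdGFP for any of these 4 genes.
Mtf1, the sensor itself, read 7.27 on AdGFP and 7.27, 7.35 and 7.30 with miR-7 by the probe set tested, at 0.04 ± 0.08 (limma adjusted p = 0.743), while its other probe sets above the filter gave -0.02 and -0.26. Of the genes named above that MTF1 is known to act on, Mt1, Mt2 and Slc30a1 were lower with miR-7 and Slc39a10 higher. By its second probe set, 1422786_at, Slc30a1 did not pass. Zinc and MTF1 activity were not measured, and the part of MTF1 in the levels of these genes was not tested. No threshold call of these genes survived leaving out any miR-7 array.

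RefSeq promoter windows (GRCm38.p6) held the 250 bases before an annotated start of a gene. They were searched on both strands for the core of the metal response element, spelled TGCACNC or TGCGCNC. A match stood in 21.4% of all 32851 windows, 2 or more in 5.17% and 3 or more in 1.26%. Of the 10 Slc30 genes, 9 had a window, all but Slc30a8, and 6 of these had a match: Slc30a10 had 3, Slc30a2 and Slc30a4 had 2, and Slc30a1, Slc30a5 and 1 of the windows of Slc30a3 had 1. Slc30a6, Slc30a7 and Slc30a9 had 0. Mt2 had 3, Mt1 had 1, and Mt3 and Slc39a10 had 0. The 21.4% is a share of windows, and a gene with several windows counted as matched by any of them. The share of all genes with a match was not counted, so 6 of 9 Slc30 genes cannot be set against it. The matches of Slc30a1 and Slc30a4, which fell, are shown on the strand of the gene, with the match in capitals, as it reads on that strand.
Slc30a1: aacgggggttccGAGTGCAaagcaaagttt
Slc30a4, the match farther from the gene's start: cccgggggctcaGAGCGCAcaagacctcag
Slc30a4, the match nearer to it: ctcgcgcctcgcGGGCGCAcgcgccgcctc
The stretches lie at chr1:191906726-191906755 on the plus strand and at chr2:122702874-122702903 and chr2:122702738-122702767 on the minus strand. The Slc30a1 window was set by a start 43 bases beyond the beginning of the match. The annotated span of Slc30a1 begins earlier, at chr1:191906697, so by that start its stretch lies inside the gene. All 3 matches read as the reverse complement of the spelled motif. A match is a description of the letters, and binding was not measured. Only the spelled motif before the start was searched, so a lack of match does not show that a gene lacks such elements.

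Deleting miR-7a2 in beta cells is the opposite manipulation, made in the tissue. In KO against WT islets, 1 array each and so with no replicate check, none of the 8 Slc30 genes reached a log2 size of 1, which 2.65% of the 10568 genes tested did. The family median was -0.08 against -0.03 over all genes, and 2 genes were higher, 5 lower and 1 equal.

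Slc30a8 stood at 14.11 in KO and 14.32 in WT, a difference of -0.21 or 0.864 of the WT level. It was thus lower in KO as it was lower with miR-7 in MIN6. Slc30a1 stood at 10.37 in KO and 9.94 in WT by 1436164_at, 0.43 or 1.35-fold higher, at the 92.8 percentile of all genes, and at 7.25 and 6.99 by 1422786_at, 0.26 higher. Both probe sets of Slc30a1 were lower with miR-7 and higher in KO. No islet difference has a replicate behind it.

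The vesicular genes Slc30a4 (11.25 in KO and 11.19 in WT) and Slc30a3 (6.08 in both) differed by 0.06 and 0. Slc30a5 differed by -0.13, Slc30a6 by -0.08 and Slc30a9 by -0.07. Slc30a7 again gave opposite signs, -0.31 by 1435717_at, which was the brighter probe set in islets, and 0.25 by 1450697_at. Among the other zinc genes, 13 passed the filter in islets and 0 of them reached a size of 1. Mt1 differed by 0.13, Mt2 by 0.11, Slc39a1 by 0.42, Slc39a9 by -0.19 and Slc39a10 by -0.13. Slc39a8 was below the filter in islets, at 4.10 in KO and 3.10 in WT, a difference at the size threshold of 1.

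**Figure D3:**
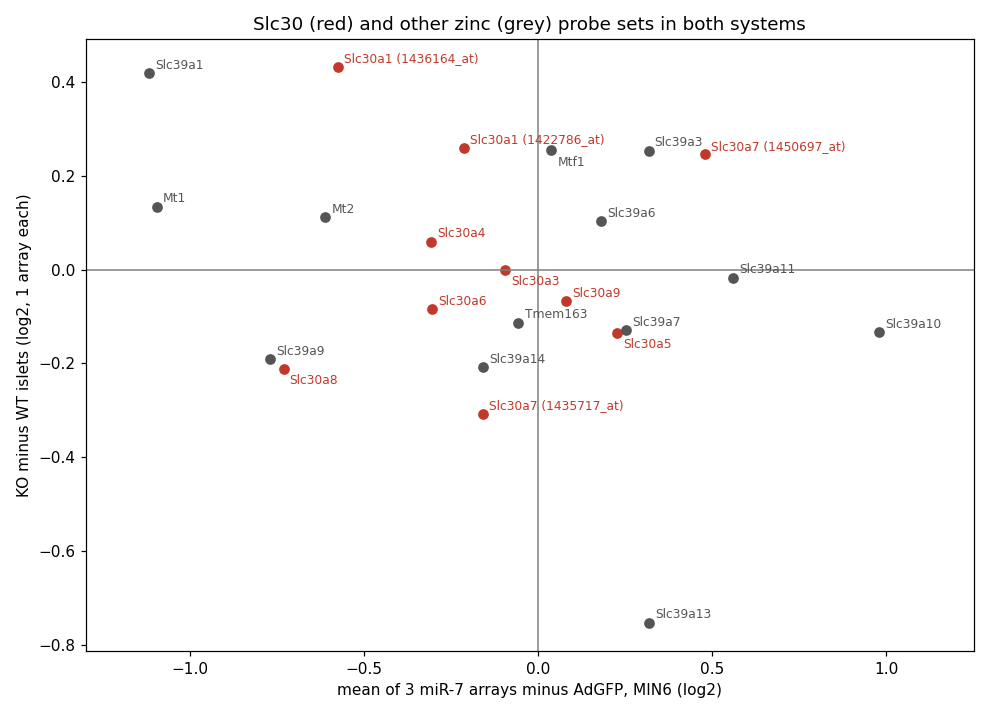
Mean of the 3 miR-7 arrays minus AdGFP in MIN6 cells (log2, horizontal axis) against KO minus WT islets (log2, 1 array each, vertical axis). Each point is a probe set above the filter in both systems. Slc30 probe sets are red, and each other zinc gene is grey, by the probe set used for it in MIN6 only. Both Slc30a1 and both Slc30a7 probe sets are labelled with their names. Further probe sets of the other zinc genes are not shown. Among these is that of Slc39a6 which read 5.14 in KO and 3.13 in WT islets. The Slc30a1 probe sets lie at the upper left, lower with miR-7 and higher in KO, whereas Slc30a8 lies at the lower left, lower in both.

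The identity of the samples was checked by markers. Of 9 beta-cell markers listed, 7 had a probe set and their summed level, expressed as log2, was 17.44 on AdGFP, 17.28 to 17.38 on the miR-7 arrays, 17.58 in KO and 17.52 in WT islets. The sum rests mainly on Ins2 and Iapp, and Ins2 lay between 15.7 and 15.9 on every array. Other beta-cell markers were lower on the miR-7 arrays, whose mean minus AdGFP was -1.15 for Ucn3, -0.99 for Pdx1, -0.76 for Nkx6-1 and -0.30 for G6pc2, beside -0.73 for Slc30a8. Their part in the Slc30a8 difference was not tested. Slc2a2, the beta-cell glucose transporter gene, was at 3.84 on AdGFP and 2.52 on each miR-7 array, below the filter, and at 14.49 in KO and 14.15 in WT, so this defining marker was near the minimum in these MIN6 cells. Between the islet arrays, 4 of the 7 beta-cell markers were higher in KO and 3 lower. KO minus WT was 0.73 for Nkx6-1, 0.34 for Slc2a2, 0.28 for Pdx1 and 0.12 for G6pc2. It was -0.43 for Ucn3, -0.0104 for Ins2 and -0.0055 for Iapp. The alpha-cell sum was 16.89 in KO and 16.95 in WT over 3 of 5 markers.
The sums of non-endocrine cells in KO and WT were 10.55 and 10.70 for endothelial markers (5 of 5 measured), 9.48 and 9.81 for fibroblast or stellate markers (5 of 5), 10.65 and 10.55 for immune markers (5 of 5) and 10.44 and 10.73 for acinar markers (10 of 13). The acinar genes Cel and Rbpjl sat at the minimum in both, and most of the acinar sum came from Bhlha15. The spiked poly-A controls averaged 8.37 in KO and 9.50 in WT. The part of these differences in the Slc30 values was not tested, and in bulk samples fewer cells of a type and less RNA per cell cannot be told apart.

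Across the systems, Slc30a8, and Slc30a1 by 1 of its 2 probe sets, had the largest excess in islets over MIN6 among the Slc30 genes. Slc30a7, also by 1 of its 2 probe sets, had the largest deficit. The 2 islet arrays were set against the 4 MIN6 arrays in limma, so the spread holds genotype and vector, and 3 of the 4 MIN6 arrays carried miR-7. With terms for the vectors and KO, the fit sets 1 WT islet array against 1 AdGFP array. Its spread comes from the miR-7 arrays alone, so it holds no spread between islet arrays. The 6 Slc30 genes named next kept the directions given there. By the probe set used for each gene, Slc30a1, Slc30a8 and Slc30a9 were higher and Slc30a4, Slc30a5 and Slc30a7 lower. These are 3 each of 8, where 34.6% of 11155 genes were higher and 34.2% lower. The second probe sets of Slc30a1 and Slc30a7 did not share these directions.

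Slc30a8 averaged 14.21 in islets against 11.60 ± 0.37 (SD, n = 4) in MIN6, a difference of 2.61 ± 0.24 (log2, SE; limma adjusted p = 0.000179) or 6.11-fold. Slc30a1 averaged 10.15 against 7.81 ± 0.29 by 1436164_at, 2.34 ± 0.22 higher (limma adjusted p = 0.000184) or 5.06-fold. With terms for the vectors and KO the differences were 2.17 for Slc30a8 and 1.69 for Slc30a1. In both cases the lower islet array was well above the highest MIN6 array, AdGFP. The second Slc30a1 probe set did not share this: 1422786_at read 7.25 and 6.99 in islets, within or below the MIN6 range of 7.21 to 7.50, a difference of -0.21 ± 0.13 (limma adjusted p = 0.193).
Slc30a9 was 0.60 ± 0.10 higher in islets (limma adjusted p = 0.00256), at 11.41 and 11.48 against at most 11.01 in MIN6.

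Slc30a4 (-0.71 ± 0.12, log2, SE; limma adjusted p = 0.00263) and Slc30a5 (-0.62 ± 0.11; limma adjusted p = 0.00337) were lower in islets. Neither overlapped with MIN6, since the islet values of Slc30a4 were at most 11.25 against at least 11.85, and those of Slc30a5 at most 11.75 against at least 12.13. Slc30a7 was lower by 1450697_at, at 8.45 and 8.20 against at least 9.43 in MIN6, a difference of -1.47 ± 0.18 (limma adjusted p = 0.000622). By 1435717_at it was higher, at 9.56 and 9.87 against at most 9.13, a difference of 0.74 ± 0.18 (limma adjusted p = 0.0115). Each probe set separated islets from MIN6, in opposite directions, so no direction holds for the gene. Slc30a6 (-0.14, limma adjusted p = 0.367) and Slc30a3 (-0.03, limma adjusted p = 0.797) did not pass.
Tested each on its own, 7 of the 10 Slc30 probe sets above the filter were called, against 67.1% of all probe sets tested, so a difference between these systems was common. The share of all probe sets whose islet and MIN6 values did not overlap was not counted, so the lack of overlap marks nothing particular to these genes.

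**Figure D4:**
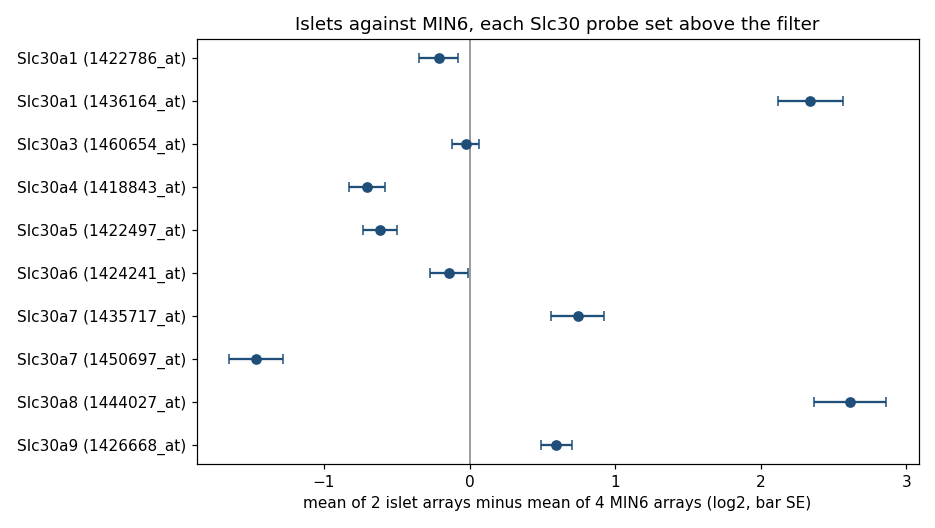
Mean of the 2 islet arrays minus mean of the 4 MIN6 arrays (log2, horizontal axis) for the 10 Slc30 probe sets above the filter (vertical axis), with the SE of the limma fit as bars. The paired probe sets of Slc30a1 (2.34 and -0.21) and of Slc30a7 (0.74 and -1.47) lie on opposite sides of 0.

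Other measures also separated islets from MIN6. The endothelial, fibroblast and immune sums were 4.49 to 5.42 on all MIN6 arrays, and the difference between the 3′ and 5′ probe sets of the actin control was 2.65 in KO and 2.77 in WT against 1.43 to 1.48 in MIN6. The delta-cell sum was 14.74 in KO and 14.77 in WT against 9.29 to 9.65 in MIN6. For PP cells the marker stood at 15.71 in KO and 15.60 in WT against 5.59 to 6.75. Hybridisation controls averaged 10.02 in KO and 10.04 in WT against 11.62 to 11.85 in MIN6. The poly-A controls averaged 8.37 and 9.50 against 6.67 to 6.87. The part of all these measures in the Slc30 differences was not tested. Of the 15 other zinc genes tested, 5 were higher in islets and 7 lower, beside 34.6% and 34.2% of all genes tested, and without the KO or the WT array 2 or 3 were higher. Mt1 (1.52 ± 0.35) and Mt2 (1.20 ± 0.20) were higher, Mt3 (-5.72 ± 0.54), Slc39a8 (-6.55 ± 0.52) and Slc39a10 (-1.41 ± 0.31) lower. Mt1 and Slc39a10 did not pass without the KO array (limma adjusted p = 0.0843 and 0.0768) or without the WT array (0.0675 and 0.0606). With terms for the vectors and KO, which leave 1 WT array against 1 AdGFP array, Mt1 stood at 0.63, Mt2 at 0.69 and Slc39a10 at -0.61.

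Over the 6 arrays, each gene centred on its own mean, the genes whose values lay nearest to those of Slc30a8 were Ctdsp2, Phc3, Limd1, Ier3 and Cplx2, the last encoding complexin 2, a regulator of vesicle fusion. Their root mean square differences from Slc30a8 were 0.0734, 0.0777, 0.108, 0.114 and 0.121 (log2), where the median of the 9764 genes compared was 1.28. Ctdsp2 read 9.48 on AdGFP, 8.56 to 8.83 with miR-7 and 11.53 in both islet samples. The genes were chosen for this likeness, so it is a description of 6 arrays.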

How the data were processed

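RNA extracted with Trizol was hybridised to 6 arrays. The authors deposited log2 intensities per probe set; the submitters' processing notes name affy and GCRMA, without versions. GCRMA corrects background from probe sequence and normalizes arrays by quantiles, which sets arrays of different tissue to nearly one distribution (upper quartile 7.95 to 8.01). Scanner files were not used here. Groups came from the labels. Each gene took its probe set with the highest mean in the system compared, MIN6, islets or both; genes with a mean below 4 were left out, and for islets against MIN6 a mean of 4 in either sufficed. Probe sets naming several genes (932) were not used. Tests were two-sided in limma 3.58.1 (R 4.3.3) with Benjamini-Hochberg adjustment over all genes tested. Only the pooled miR-7 fit was run on simulated data. There AdGFP was made to vary like the miR-7 arrays, so the simulation cannot check that assumption. The pooled miR-7 fit had 2 residual degrees of freedom, that of islets against MIN6 4; the lone AdGFP array was assumed to vary like the others. "Rose" and "fell" mean an adjusted p under 0.05. The number of arrays limits the precision. Named were all Slc30 genes, the other zinc genes that passed the pooled test, the metallothioneins, Mtf1, any zinc gene with a KO minus WT size of 1 or more, marker sums, and the 5 genes nearest to Slc30a8. The members and lists were chosen with earlier results of these data known. Alternatives were another filter, normalization, centring, probe set rule, an intensity trend, a mean per vector, terms for the vectors and KO, and leaving out each array.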

Additional observations from a re-analysis of the deposited data

How the results depend on the processing

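The number of arrays, 1 in each of 4 groups, limits every comparison, and AdGFP could not be left out of the miR-7 comparisons, nor KO or WT out of theirs. No paired analysis was possible because the groups share no pairing in the labels. For the pooled miR-7 comparison (1 Slc30 gene higher and 3 lower, 1 other zinc gene higher and 6 lower, 1480 genes higher and 1235 lower in all), leaving out AdmiR7a 1, AdmiR7a 2 or AdmiR7b gave 0 to 0 genes in each of these counts, and so did a mean per vector; these fits have 1 residual degree of freedom. With no filter 0 Slc30 genes were higher and 1 lower, 2 other zinc genes lower, and 427 genes higher and 554 lower. The single higher Slc30 gene was lost (0) with the mean of all probe sets and with each probe set tested. Other zinc genes called higher numbered 3 with a filter at 6 or the mean of probe sets, and 2 with quantile normalization, centring or an intensity trend, where Slc39a11 or Slc39a3 joined Slc39a10. For AdmiR7a alone (0 calls), a filter at 6 gave 2 Slc30 genes lower and 890 genes higher and 847 lower in all, quantile normalization 1 higher and 2 lower (1250 and 1112), centring 2 lower (1105 and 1220), the mean of probe sets 1 lower (453 and 514) and no filter 156 and 194. By size, KO against WT islets gave 136 genes lower, 212 with no filter and 74 with the mean of probe sets; AdmiR7b gave 400 higher and 442 lower, 290 lower with the mean of probe sets, and 0 and 0 in a limma contrast that borrows the AdmiR7a spread. Other zinc genes higher in islets numbered 5, and 2 or 3 without the KO or the WT array.

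Signs turned with the probe set. Slc30a7 by 1435717_at stood at -0.16 pooled, -0.0056 with AdmiR7a and 0.74 in islets against MIN6. Leaving out 1 array in turn there gave Slc30a7 values from -1.59 to 0.80, positive (0.80, 0.76 and 0.63) without AdmiR7a 1, AdmiR7a 2 or AdmiR7b, when 1435717_at became the brighter probe set. Slc30a1 by 1422786_at stood at -0.21 in islets. Mtf1 stood at -0.042 with the mean of probe sets and at -0.024 and -0.26 by its other probe sets. In islets against MIN6 it stood at -0.20 by 1429170_a_at, and at -0.33 to 0.94 with 1 array left out. Mtf1 was negative there (-0.33 and -0.076) without the KO or the WT array, when 1429170_a_at became the brighter probe set. Slc39a3 stood at -0.16 in islets with the mean and at -1.20 by 1417882_at. Why the probe sets of a gene differed was not tested in any of these cases.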

Other observations

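Of the importers that did not pass in MIN6, Slc39a11 stood at 0.56 ± 0.14 with miR-7 (limma adjusted p = 0.0538) and Slc39a3 at 0.32 ± 0.08 (limma adjusted p = 0.0537), both above AdGFP on all 3 miR-7 arrays. Slc39a6, Slc39a7 and Slc39a13 differed from AdGFP by 0.18, 0.25 and 0.32 and Slc39a14 by -0.16, none past the threshold. Slc39a2, Slc39a4, Slc39a5 and Slc39a12 had every probe set at or within 0.001 of the minimum of 2.17 on all 6 arrays.

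Slc39a13, a Golgi zinc transporter gene, stood at 5.57 in KO and 6.32 in WT islets, a difference of -0.75, the largest size among the zinc genes tested in both systems. A second probe set of the importer gene Slc39a6, chosen here after its values were seen, read 5.14 in KO and 3.13 in WT, while the probe set used for the gene differed by 0.10.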
